A study of Homo sapiens with 6 samples.

Results

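The miR-30-3p sites are the positions in human HK2 cells at which RNA was crosslinked to Argonaute and at which the authors named the seed of hsa-miR-30a-3p as the nearest microRNA match. All rows of the deposited site table with that seed were taken, whatever the type of match or the transcript feature, which gave 362 of 16230 sites. They lie in 293 of the 4361 named genes with any site, and 15 of them have no gene name. In every case the authors give the seed as shared by miR-30a-3p and miR-30e-3p. Another 283 sites name miR-30a-3p only as a further seed and are not counted among the 362.

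HK2 is an established line of human proximal tubule epithelium, here with wild-type genotype. In PAR-CLIP, 4-thiouridine built into new RNA is crosslinked to a bound protein by long-wave UV light, and the crosslinked T is later read as a changed base. Cells of both groups were serum starved for 24 h and were given 100 uM 4-thiouridine for the last 20 h before exposure to 365 nm light. The 2 control libraries came from cells without added cytokine and the 2 TGF-beta1 libraries from cells that received the cytokine (20 ng/mL, 24 h), all pulled down with an antibody to Argonaute. The 2 IgG libraries, also from control cells, were not analysed here. The labels do not say that replicates are separate cultures. The p-values set the difference between groups against the spread of these libraries within a group, and that spread may be technical.

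A microRNA hairpin is cut into a duplex with a 5p and a 3p strand, and Argonaute keeps one of them as its guide. In the miR-30 family the 5p strand is the usual guide, and the 3p strand is the passenger strand of the same duplex, although miR-30a-3p and miR-30e-3p are themselves found in Argonaute in many tissues. The guide finds targets through its seed, bases 2 to 8, which pairs with a complementary stretch of the target. The crosslinked U of a target is usually close to the start of that stretch, opposite the bases of the guide that follow the seed. TGF-beta1 is the cytokine used to drive tubular cells towards a fibrotic state.

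The mature strands, from RefSeq on GRCh38.p14, show how the passenger and guide strands differ. Capitals mark the seed. MIR30A lies on the minus strand of chromosome 6 and MIR30E on the plus strand of chromosome 1.
hsa-miR-30a-3p: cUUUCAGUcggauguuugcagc
hsa-miR-30e-3p: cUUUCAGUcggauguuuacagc
hsa-miR-30a-5p: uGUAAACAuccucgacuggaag
The 3p strands share one seed, so a seed match does not tell them apart. In a target written as DNA, the full 7-nt match to the 3p seed reads actgaaa and that to the 5p seed tgtttac. The 3p match holds a single T and the 5p match 4, which sets how often a crosslink can fall inside the match. The base after the 3p seed, base 9, is C and base 10 is G.

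The next sequences are deposited site windows trimmed to 30 bases of the RNA strand on hg38. Capitals mark the seed match, and the crosslinked T is base 15 from the 5′ end. The first 5 have a 7-nt match that starts 2 bases after the crosslinked T, the most frequent arrangement among the miR-30-3p sites.
RAPGEF2, chr4:159359445-159359474, plus strand: tattaaccctataatgACTGAAAtgacccc
AL592148.3, chr1:222661305-222661334, minus strand: caagatgaatcgtctgACTGAAAtgactgc
GNPNAT1, chr14:52775291-52775320, minus strand: ttttttttttgtaatgACTGAAAgctgttc
TULP4, chr6:158511246-158511275, plus strand: atgggttatgcgtttgACTGAAAaagacac
PCNP, chr3:101593198-101593227, plus strand: tgttactgaactattgACTGAAAgtaaatt
In each of these 5 the match is preceded by tg, so the crosslinked T faces base 10 and a G faces base 9 of the 3p strand. The next 2 have the same spacing but another base opposite base 9.
SOWAHC, chr2:109617223-109617252, plus strand: tacctatcctgtagttACTGAAAatctggg
NEAT1, chr11:65425250-65425279, plus strand: gactgaagaagtgttaACTGAAAacaggtg
Other spacings are shown by DYRK2, with 1 base less, by SNHG1, with the crosslink inside the match, and by RTN4, with the match upstream of the crosslink. MTSS1L and an unnamed chromosome 19 site have 6-nt matches. There the 7-nt match would also start 2 bases after the crosslinked T.
DYRK2, chr12:67662402-67662431, plus strand: gctgcaactgtgtgtACTGAAAatatgtga
MTSS1L, chr16:70661472-70661501, minus strand: tcaaaagcgtcttttgACTGAAgtaacttt
unnamed site, chr19:57298119-57298148, plus strand: atatgatctgtccattgCTGAAAgtagggt
SNHG1, chr11:62853332-62853361, minus strand: gatcaatgtgtgACTGAAAggtattttctg
RTN4, chr2:54972233-54972262, minus strand: tgtACTGAActaaatctgtggaatgcattg

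The labels' cell type was set against marker genes of the site table first. Of 15 markers of cultured proximal tubule cells, 5 (KRT18, CDH2, PAX8 and VIM among them) held an Argonaute site, and none of the 5 held a miR-30-3p site. Of 19 markers of fibroblasts, endothelium, leukocytes, podocytes and distal tubule, 0 held a site; a gene without an Argonaute site can still be expressed. Library depth, recovered from the deposited RPM values (reads scaled to the library total), was 1714445 and 1926255 reads for control and 5293207 and 3415699 for TGF-beta1. The miR-30-3p sites received 636 and 720 crosslinked reads in control and 1221 and 1081 in TGF-beta1. The table lists a site only if reads with a crosslink were found in at least 2 libraries.

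Matches to the 3p seed were shorter than those to the 5p seed. Of the 362 miR-30-3p sites, 81 (22.4%) had the full 7-nt match, 152 a 6-nt match to bases 2 to 7 and 129 a 6-nt match to bases 3 to 8. No miR-30-3p site was listed with a bulged match. Of the 450 miR-30-5p sites, 244 (54.2%) had the full match and 25 a bulged one. By the full-match share miR-30-5p ranked 4 and miR-30-3p 18 from the highest among the 32 seed groups with at least 100 sites. The miR-30-3p share was thus not unusual among these groups. Of the miR-30-3p sites 24 also list the seed of another microRNA adjacent to or near the crosslink, and 249 of the 362 list no other seed at all. The authors' own microRNA score, reads of the seed family scaled to the library total, was 7344 for the 3p seed and 50330 for the 5p seed, a 6.85-fold difference with no replicate values.

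The authors class a match by its distance from the crosslink. At 23 miR-30-3p sites (6.35%, 95% Wilson interval 4.27 to 9.35) the match was adjacent, at 143 (39.5%) near and at 196 (54.1%) elsewhere in the window. Adjacent matches made up 49.6% of the miR-30-5p sites. Among the 32 seed groups with at least 100 sites the adjacent share ran from 4.46% to 76.7% with a median of 31.7%, and the miR-30-3p group ranked 30 of 32 from the highest. The full 3p match begins with a and the full 5p match with t, so only the latter can start at the crosslinked T itself. That start was found at 8 miR-30-3p sites (2.21%) and at 89 of 447 miR-30-5p sites (19.9%) outside small nucleolar RNAs. The part of the seed sequence in the adjacent shares was not tested. All intervals on shares of sites cover counting error only and treat sites as independent. No molecular identifiers were used here to remove copied reads.

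Measured base by base, the matches nevertheless had a preferred place. For 46 miR-30-3p sites (12.7%, 95% Wilson interval 9.66 to 16.5) the crosslinked T lay 2 bases before the place where the 7-nt match starts or would start. This class is called the upstream-2 sites here, and its T faces base 10 of the 3p strand. The next most frequent place was the single T inside the match, with 31 sites, followed by the base directly after the match, with 25 sites. Of the 27 positions with any site, the others held 5 to 18 each. No match started 5, 4, 3 or 1 bases before the crosslinked T, where the match has a base other than T. The classical arrangement, with the T 1 base before the match and opposite base 9, was found at 15 sites (4.14%). With the full match alone, 19 of 81 sites (23.5%, interval 15.6 to 33.8) were upstream-2 and 4 (4.94%) had the T 1 base before the match. Full matches to the 5p seed had the reverse order, with 15 of 244 (6.15%) upstream-2 and 122 (50.0%) with the T 1 base before the match. Over all 3056 full-match sites of the series the shares were 5.89% and 55.1%. The authors' adjacent class does not hold the upstream-2 sites of the 3p seed, so their place is not seen in the adjacent share.

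**Figure D1:**
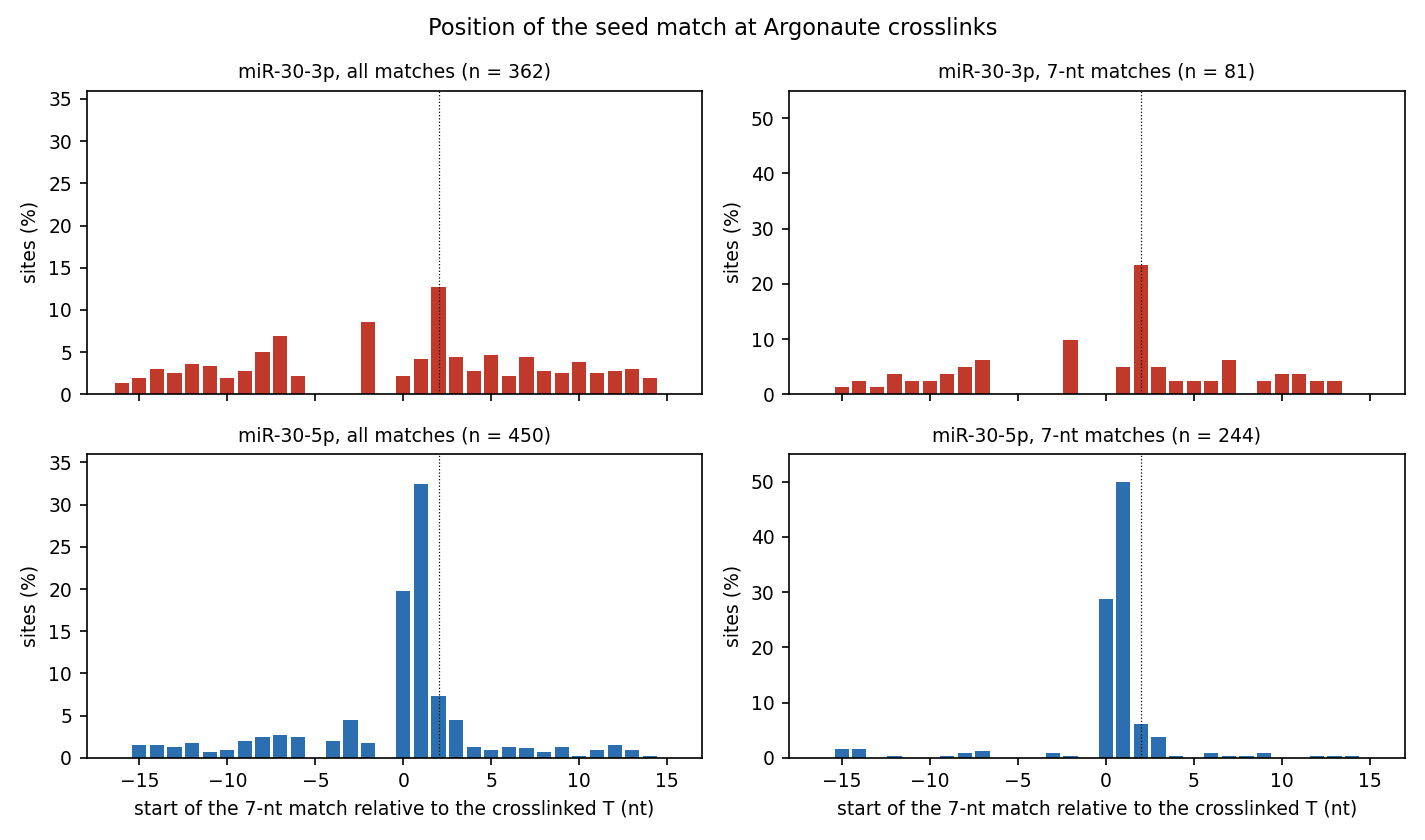
Share of sites (%) by the place where the 7-nt match starts relative to the crosslinked T (nt, positive values downstream), for miR-30-3p sites above and miR-30-5p sites below, with all matches at left and full 7-nt matches at right; the dotted line marks 2 nt. The miR-30-3p sites peak at 2 nt (12.7% of 362 and 23.5% of 81), and the miR-30-5p sites at 1 nt (50.0% of the 244 full matches).

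The base between the T and the match was G at 34 of the 46 upstream-2 sites (73.9%, interval 59.7 to 84.4), where it faces the C at base 9 of the 3p strand. At the miR-30-3p sites in other positions the base facing base 9 was G at 63 of 304 (20.7%). G also follows the crosslinked T often without regard to a match: at 53.9% of all miR-30-3p sites, 50.9% of those outside the upstream-2 class and 46.4% of the 16230 sites. Among the 19 full-match upstream-2 sites 17 had the G, with T in SOWAHC and A in NEAT1 as the exceptions. At the other full matches 21 of 61 had a G facing base 9, and G followed the crosslinked T at 29 of 62. At the 33 upstream-2 sites of the 5p seed, whose base 9 is U, the facing base was A at 3 and G at 13. On the other side of the seed, the base facing base 1 was A at 27 of 69 full-match miR-30-3p sites (39.1%), against 57.7% of full-match miR-30-5p sites and 45.5% of all full-match sites. How far the G after the T, common at all sites, sets this figure was not tested.

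The 19 full-match upstream-2 sites lay in 19 genes. The 17 with a G include those in RAPGEF2, AL592148.3, GNPNAT1, TULP4, PLAG1, PCNP, MAP3K21, DFNA5, GRB2, KIAA0907, MYL12B, H2AFV, NAP1L1, DCBLD2 and GLIS3. The median over all 19 was 15 reads per site, against 5 for the 62 full-match sites at other positions. RAPGEF2, an exchange factor for Rap GTPases, had the most, with 13 and 30 crosslinked reads in control and 29 and 25 in TGF-beta1. In AL592148.3, a noncoding RNA, the reads were 10 and 7 in control and 8 and 10 in TGF-beta1. GNPNAT1, an enzyme of UDP-N-acetylglucosamine synthesis, had 6 and 10 in control and 5 and 5 in TGF-beta1. TULP4, a tubby-like protein, had 2 and 7 in control and 6 and 15 in TGF-beta1. GRB2, the adaptor that links receptor tyrosine kinases to Ras, had 1 and 6 in control and 0 and 8 in TGF-beta1. Raw reads rise with depth, so these values are compared between groups only after scaling.

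Upstream-2 sites also carried the crosslink in a larger share of their reads. For sites crosslinked in every library, the crosslinked reads were divided by the reads that cover the position. At the 12 full-match upstream-2 sites the share was 49.2% and 46.0% in control and 27.7% and 31.1% in TGF-beta1. At the 19 other full-match sites it was 19.6% and 15.9% in control and 19.2% and 13.5% in TGF-beta1, so the upstream-2 sites were higher in 4 of 4 libraries. The same order held for 6-nt matches, with 30.1%, 36.2%, 26.3% and 37.0% at 7 upstream-2 sites, in the order control 1, control 2, TGF-beta1 1 and TGF-beta1 2. At 61 others it was 11.3%, 12.4%, 7.95% and 10.4%. Such sums follow the most covered sites, and the 61 include RNU5E-1, covered by 433, 367, 1118 and 899 reads. The median share per site differed less for 6-nt matches, at 35.3% for upstream-2 sites and 20.8% for the others. For full matches the medians were 41.6% and 18.75%. Within 3′ UTRs, with all match types, the medians were closer, at 43.2% for 13 upstream-2 sites and 33.2% for 38 others. The sums there were 43.0%, 43.4%, 28.5% and 30.2% for upstream-2 sites, in the same order of libraries. For the others in 3′ UTRs they were 21.9%, 20.1%, 18.2% and 15.4%. The part of the transcript feature in the difference was not tested. Without RAPGEF2 the full-match upstream-2 share was 50.5% and 44.6% in control and 24.3% and 32.5% in TGF-beta1, and without sites in small nucleolar RNAs the other full matches stood at 16.2% to 20.3%. With 2 libraries against 2 an exact permutation test could not go below p = 0.333, and no test was made on these sums over sites.

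**Figure D2:**
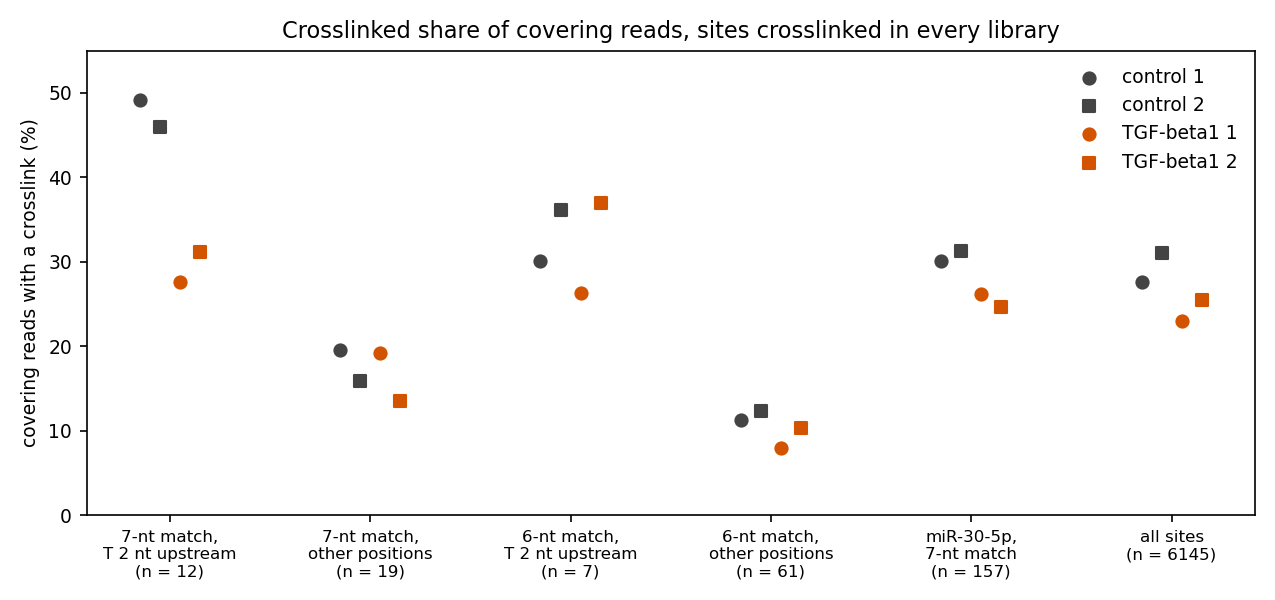
Reads with a crosslink as a share (%) of the reads covering the position, in each of the 4 libraries, summed over sites crosslinked in every library. The miR-30-3p sites with the T 2 nt before the match lie between 26.3% and 49.2%, and those at other positions between 7.95% and 19.6%.

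Taken over all 99 miR-30-3p sites crosslinked in every library, the share was 14.96% and 16.1% in control and 10.9% and 12.9% in TGF-beta1. That was below the 239 miR-30-5p sites (29.98%, 31.1%, 25.2% and 24.8%) and below all 6145 such sites (27.6%, 31.1%, 22.98% and 25.5%) in each library. Both TGF-beta1 libraries were below both control libraries in the 3 groups of sites alike, and they were also the more deeply sequenced ones. The part of depth in this difference was not tested.

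The miR-30-3p sites lay less often in 3′ UTRs than the miR-30-5p sites. By the authors' annotation 124 (34.3%, interval 29.6 to 39.3) were in 3′ UTRs, 100 (27.6%) in coding sequence, 85 (23.5%) in introns, 23 (6.35%) in noncoding RNA and 15 between genes. Of the miR-30-5p sites 64.0% (interval 59.5 to 68.3) were in 3′ UTRs, and of all 16230 sites 39.0%. Over the 32 seed groups with at least 100 sites the median share was 39.7%. The miR-30-5p group ranked 1 and the miR-30-3p group 25 from the highest, so the comparison strand is itself the extreme one. Among full matches the miR-30-3p share was 46.9%, against 73.4% for full matches to the 5p seed and 56.0% for all full matches. The remaining miR-30-3p sites comprised 4 in 5′ UTRs, 4 downstream of an annotated 3′ UTR, 4 antisense, 2 in coding sequence of one transcript and 3′ UTR of another, and 1 in a pseudogene.

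**Figure D3:**
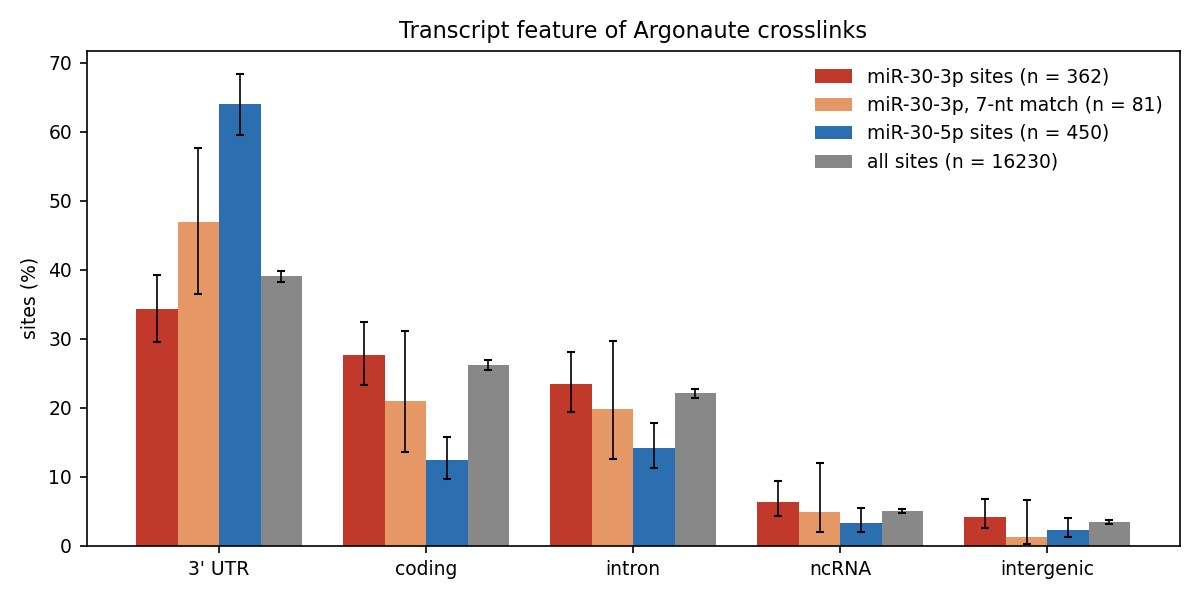
Share of sites (%) by transcript feature with 95% Wilson intervals as bars, for the 362 miR-30-3p sites, their 81 full matches, the 450 miR-30-5p sites and all 16230 sites. The 3′ UTR share is 34.3% for miR-30-3p sites, 46.9% for their full matches and 64.0% for miR-30-5p sites.

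Read depth at single miR-30-3p sites was low. The median was 6 crosslinked reads over the 4 libraries (10 for miR-30-5p sites, 7 for all sites) and the highest 159. At least 20 reads were found at 39 sites (10.8%), against 23.6% of miR-30-5p sites and 15.4% of all sites. Crosslinks were present in 2 libraries at 113 sites, in 3 at 150 and in all 4 at 99. Sites in 3′ UTRs had a median of 7 reads, those in coding sequence 5 and those in introns 4. The 12 highest sites together held 25.2% and 23.3% of the crosslinked reads of the group in control and 23.01% and 27.7% in TGF-beta1.

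Small nucleolar RNAs held several of the highest sites. Box C/D small nucleolar RNAs guide methylation of ribosomal RNA and carry a D box, CUGA, near their 3′ end. The letters ctga are part of both 6-nt matches and of the full match to the 3p seed, so every miR-30-3p site holds them by its definition. By position alone, 19 of the 362 sites (5.25%) fell within a RefSeq small nucleolar RNA, all 19 of the SNORD class. The counts were 3 of 450 miR-30-5p sites (0.667%) and 271 of all 16230 (1.67%). At 5 of the 19, in SNORD102, SNORD30, SNORD79, SNORD1B and SNORD98, the match ended within 10 bases of the RefSeq 3′ end. Whether the matches at these or at the other sites lie in a box was not tested. Of the 19, 13 were annotated as noncoding RNA and 6 as introns, among them 4 in GAS5 (SNORD44, SNORD75, SNORD78 and SNORD79), 1 in SNHG1 (SNORD31) and 1 in SNRPB (SNORD119). They held 18.4% and 12.6% of the crosslinked reads of the group in control and 20.3% and 17.9% in TGF-beta1. Their crosslinked share of covering reads was low, 11.3% and 9.36% in control and 8.88% and 9.07% in TGF-beta1 at the 11 found in every library. All sites in small nucleolar RNAs stood close to that, at 11.5%, 10.5%, 10.1% and 9.46%. Only 1 of the 19, in SNORD36A, was an upstream-2 site, with a 6-nt match.

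SNORD26 had the highest level of all miR-30-3p sites, at 16.04 and 10.3 TMM-scaled RPM in control and 13.2 and 16.3 in TGF-beta1. TMM scaling is a correction of library totals computed on the tested sites. SNHG1 at SNORD31 followed with 12.2 and 5.16 in control and 9.24 and 7.43 in TGF-beta1. SNORD82 had 7.74 and 3.44 in control and 15.4 and 6.57 in TGF-beta1, and GAS5 at SNORD44 had 8.29 and 2.75 in control and 8.01 and 5.71 in TGF-beta1. In all of these the groups overlapped, and control 2 was the lowest library. RNU5E-1, a U5 spliceosomal RNA, had 3.32 and 1.72 in control and 5.54 and 7.43 in TGF-beta1. Its TGF-beta1 values lay above its control values, but it did not enter the test, which required 3.74 unscaled RPM in 2 libraries. Its unscaled RPM was 3.50 and 2.60 in control and 3.40 and 7.61 in TGF-beta1. Without that filter its log2 difference was 1.22 (SE 0.43, limma adjusted p = 0.280). Reads from near-identical U5 copies may be shared with it.

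Among messenger RNAs the highest level was that of RAPGEF2, in its 3′ UTR on chromosome 4, with 7.19 and 10.3 scaled RPM in control and 8.93 and 7.14 in TGF-beta1. The TGF-beta1 values lay within the control range but for 7.14, just below it. RTN4, a reticulon that shapes the endoplasmic reticulum, held a pair of sites in its 3′ UTR. The first had 7.74 and 3.10 in control and 4.31 and 5.9995 in TGF-beta1, and the second 4.42 and 1.38 in control and 3.70 and 6.86 in TGF-beta1, overlapping in both cases. SKP2, the substrate receptor of a ubiquitin ligase that acts on CDKN1B, had 4.42 and 5.16 in control and 3.08 and 2.57 in TGF-beta1 in its coding sequence, without overlap. An unnamed intergenic site on chromosome 19 had 6.64 and 6.89 in control and 8.01 and 10.0 in TGF-beta1, also without overlap. Non-overlap of single sites was not tested by itself, and the test of each site follows.

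**Figure D4:**
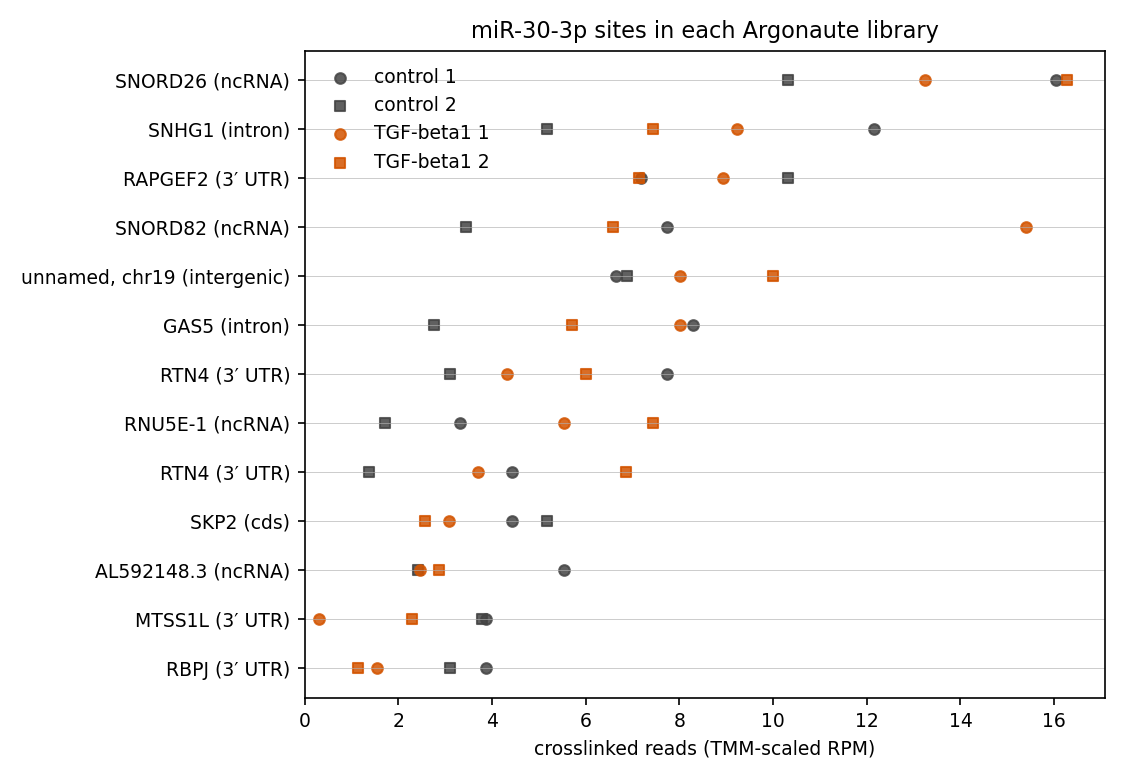
Crosslinked reads in TMM-scaled RPM in each library at the highest miR-30-3p sites and the further tested ones, 13 in all, named by gene and feature, in the order of their mean level. SNORD26 lies highest (10.3 to 16.3), both TGF-beta1 libraries lie above both controls at RNU5E-1 and the chromosome 19 site, and below them at SKP2, MTSS1L and RBPJ, which entered through their control values.

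The comparison of TGF-beta1 with control addressed the crosslinking of Argonaute at single sites. The fit with limma over all sites with enough reads tested 1059 sites and called 75 of them (7.08%) at an adjusted p under 0.05, 39 higher and 36 lower with TGF-beta1. Of the miR-30-3p sites 12 were tested and 0 were called by limma. At an unadjusted p under 0.05 limma had 204 of the 1059 sites and 0 of these 12. The other 350 miR-30-3p sites did not reach 3.74 unscaled RPM in 2 libraries, a filter that a site can pass in one group alone. Of the 12 tested, 3 passed through the control libraries only and 0 through the TGF-beta1 libraries only, so the filter bears on the differences given next. With the same 1059 sites edgeR's quasi-likelihood test called 82 (7.74%) and DESeq2 47 (4.44%), and each called 0 of the 12. At an unadjusted p under 0.05 they had 202 and 134 of all tested sites, and 1 and 0 of the 12. DESeq2 gave no adjusted p for 2 of the 12, MTSS1L and RBPJ. The log2 difference was above 0 at 8 of the 12, with a median of 0.07 beside 0.05 over all tested sites. Against a background of 7.08%, a count of 0 among 12 does not set these sites apart.

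The lowest differences were those of MTSS1L, RBPJ and SKP2, the 3 sites that passed the filter only through their control values, so they had to be lower with TGF-beta1 and their direction is no finding. MTSS1L, a membrane-bending regulator of actin, had 3.87 and 3.79 scaled RPM in control and 0.308 and 2.29 in TGF-beta1, from 1 and 8 reads in the latter. Its log2 difference was -1.22 (SE 0.61, limma adjusted p = 0.275). RBPJ, the DNA-binding partner of Notch, had 3.87 and 3.10 in control and 1.54 and 1.14 in TGF-beta1, a log2 difference of -0.94 (SE 0.58, adjusted p = 0.399). At SKP2 it was -0.60 (SE 0.51, adjusted p = 0.592). The highest differences were 0.84 at SNORD82 (SE 0.45, adjusted p = 0.310), 0.76 at the second RTN4 site (SE 0.55, adjusted p = 0.492), 0.40 at GAS5 (SE 0.48, adjusted p = 0.717) and 0.36 at the chromosome 19 site (SE 0.39, adjusted p = 0.684). SNORD26 (0.18), SNHG1 (0.04), the first RTN4 site (0.03) and RAPGEF2 (-0.10) had smaller differences. Without control replicate 1, 2306 sites were tested and 110 called (4.77%), among them SNORD82 as 1 of 30 miR-30-3p sites, with a log2 difference of 1.37 (limma adjusted p = 0.0368). That fit holds 1 control library, the lower one at SNORD82, which is assumed to vary like the TGF-beta1 pair.

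**Figure D5:**
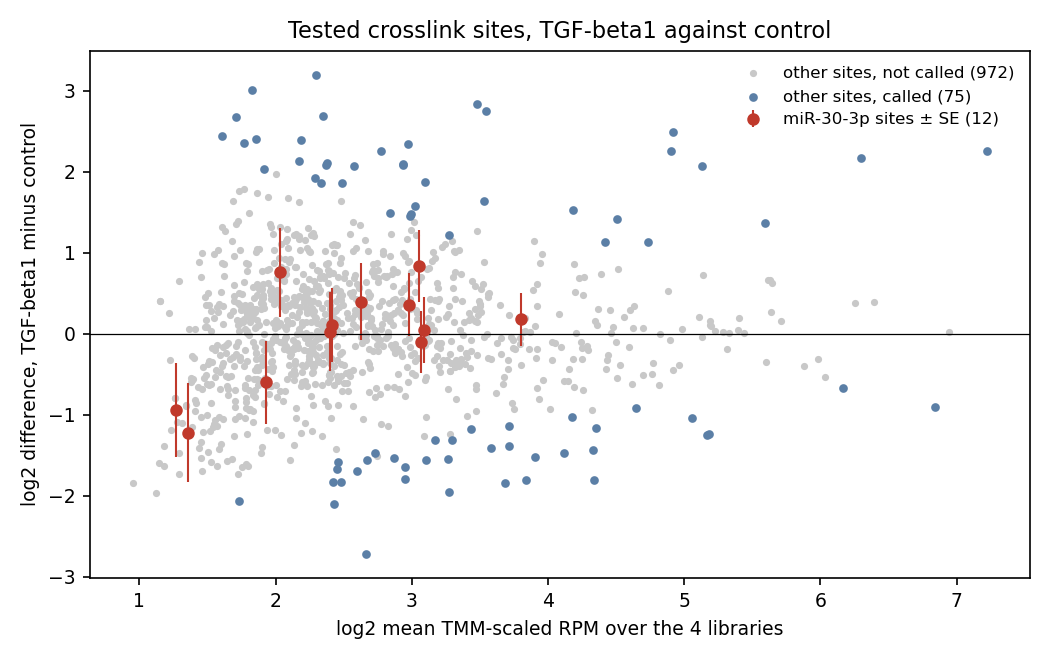
Log2 difference (TGF-beta1 minus control) against the log2 mean TMM-scaled RPM for the 1059 tested sites, with called sites in blue, the other sites in grey and the 12 miR-30-3p sites in red with their SE. The miR-30-3p sites run from -1.22 to 0.84, and none is among the 75 called.

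Covering reads, which are more numerous than crosslinked ones, allowed 67 miR-30-3p sites to be tested among 3692 sites crosslinked in every library. Here limma called 203 sites (5.5%) and 1 of the 67. At an unadjusted p under 0.05 it had 639 of the 3692 sites and 10 of the 67. The one called was in the coding sequence of TPM4, a tropomyosin, on chromosome 19, named here after its value was seen. It was covered by 11 and 6 reads in control and 54 and 41 in TGF-beta1 (log2 difference 1.47, SE 0.43, limma adjusted p = 0.0182), but its crosslinked reads were 1 and 1 in control and 2 and 2 in TGF-beta1. The next in order of p was MTSS1L, covered by 29 and 34 reads in control and 17 and 29 in TGF-beta1 (log2 difference -1.18, SE 0.41, adjusted p = 0.0650). Of the 10 at an unadjusted p under 0.05, 6 were above 0. In the 3′ UTR of HMGA2, an architectural chromatin protein, the coverage was 5 and 7 in control and 27 and 38 in TGF-beta1 (log2 difference 1.35, SE 0.48, adjusted p = 0.0684). Its crosslinked reads were 1 and 3 in control and 15 and 9 in TGF-beta1. More RNA of a gene and more Argonaute on each RNA cannot be told apart from either kind of read.

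As a share of all crosslinked reads listed, the miR-30-3p sites held 1.72% and 1.34% in control and 1.63% and 1.497% in TGF-beta1, or 1.53% ± 0.271 against 1.56% ± 0.0930 (SD, n = 2 each). The difference was smaller than the spread between the control libraries. The miR-30-5p sites held 3.88% ± 0.229 and 4.19% ± 0.305. For the miR-30-3p sites in 3′ UTRs alone the shares were 0.676% and 0.654% in control and 0.566% and 0.579% in TGF-beta1, without overlap, while all 6332 3′ UTR sites of the table, with or without a seed match, held 62.7% ± 5.29 in control and 58.1% ± 3.27 in TGF-beta1. The upstream-2 sites held 0.327% and 0.303% in control and 0.232% and 0.292% in TGF-beta1. These sums over sites were given no test.

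Most of the 293 genes had a single miR-30-3p site (257), and 36 had several. DCBLD2, a membrane receptor-like protein, had the most, with 9 sites and 81 reads, of which 2 lay in the 3′ UTR, 1 in coding sequence and 6 in introns. GAS5, RTN4 and SLC38A2 had 4 each. Sites of one gene share its RNA and are not independent. Sites for both strands of the miR-30 duplex were found in 44 genes, 15.02% of the genes with a miR-30-3p site and 11.6% of the 379 with a miR-30-5p site, while 8.69% of all named genes held a miR-30-5p site. Genes with both had a median of 19 Argonaute sites, genes with a miR-30-3p site 5 and all named genes 2, so the overlap was in genes with many sites. Of the 75 miR-30-3p sites in these genes, 4 lay within 100 nt of a miR-30-5p site, and the median distance was 3132 nt. The miR-30-5p site had more reads in 39 of the 75 cases, the miR-30-3p site in 31, and 5 were equal. In TULP4 both lay in the 3′ UTR with full matches, with 30 reads at the 3p site and 20 at the 5p site. In SKP2 the coding 3p site had 42 reads and the 3′ UTR 5p site 32. In RTN4 the first 3p site had 58 reads and the nearest 5p site, in coding sequence, 15. In DCBLD2 the highest 3p site had 29 and the nearest 5p site 3.

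Of the 70 genes of 5 pathway lists that held any Argonaute site, 9 (12.9%) held a miR-30-3p site, beside 6.72% of all named genes with a site. The listed genes had a median of 5 Argonaute sites and all named genes 2, and the shares were given no test. None of these miR-30-3p sites entered the test on crosslinked reads. Of 33 TGF-beta and SMAD pathway genes 20 held an Argonaute site and 1, the secreted matrix protein TGFBI, a miR-30-3p site, with 0 and 1 reads in control and 1 and 1 in TGF-beta1. Of 26 matrix and contractile genes 15 held a site and 3 a miR-30-3p site. These were fibronectin FN1 (2 sites, of 4 and 2 reads), the laminin chain LAMB1 (6 and 2 reads) and thrombospondin THBS1 (6 reads). Of 22 Hippo pathway genes 15 held a site and 2 a miR-30-3p site. AJUBA, a scaffold that binds LATS kinases, had a full match with 1 and 5 reads in control and 2 and 1 in TGF-beta1, and AMOTL2, an angiomotin, an upstream-2 site with 2 and 1 in control and 0 and 1 in TGF-beta1. Of 16 microRNA machinery genes 10 held a site and 1 a miR-30-3p site, DICER1, the nuclease that cuts the hairpin into the duplex. Its coding site had 3 and 11 reads in control and 3 and 3 in TGF-beta1, so 1 control library held most of them. On covering reads it was tested, with 7 and 24 in control and 10 and 11 in TGF-beta1 (log2 difference -0.91, SE 0.50, limma adjusted p = 0.339). Of 15 cell cycle genes 10 held a site and 2 a miR-30-3p site, the transcription factors E2F3 (2 reads) and MYC (6 reads).

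Outside these features, the highest sites were those of SLC38A2, a glutamine transporter, in the 5′ UTR (8 reads) and H2AFV, a histone variant, downstream of its 3′ UTR (11 reads). In antisense orientation MYH7B had 6 reads, and the pseudogene PPIEL had 2. The antisense call depends on the strand of the reads, and the authors' handling of strand is not given in the sources used here.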

How the data were processed

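Per the labels' protocols, HK2 lysates were digested with micrococcal nuclease after DNase, Argonaute complexes were immunoprecipitated and cut from a gel, and cDNA of small RNA libraries was size selected. Tools named in the submitters' processing notes are bcl2fastq 2.20.0.422, STAR 2.7.1a and bedtools, with hg38 as the genome, and gene models were of GENCODE release 27, per the file headers. The crosslink caller is not given in the sources used here. Per the file headers, the deposited table gives crosslinked and covering reads per site and library in RPM, scaled to the library total. The microRNA reads of a seed are the authors' score scaled to the library total and rounded, and the deposited offset of the match is a distance in nt. The score of the deposited position list is 1 at every site and was not used. Another 4 columns, which name RNA-seq samples, were not used.

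All RPM values (100% within 0.1 reads) were whole multiples of 1 read, so reads were recovered. Coverage was listed at 0 wherever no crosslink was found. The main test was limma 3.58.1 (R 4.3.3) on log2(TMM-scaled RPM + 1) (eBayes with trend, two-sided test), Benjamini-Hochberg adjusted p under 0.05, after edgeR 4.0.16 filterByExpr with a minimum count of 10 (3.74 unscaled RPM in at least 2 libraries). TMM factors were 1.05 and 1.51 in control and 0.613 and 1.02 in TGF-beta1. edgeR and DESeq2 1.42.0 on the recovered reads, other scalings, pseudocounts, filters and libraries left out in turn were alternatives, as were, chosen after seeing the data, leaving out small nucleolar RNA sites and keeping only full matches. The fit was tested on simulated data. The correlation of the deviations of same-numbered libraries was 0.12 over 2 pairs, and the numbers were not taken as pairs.

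All members and gene lists were chosen with earlier results of these data known. Some sites that these rules name are not reported here. Named sites were the 12 highest by mean level, any called, the 5 highest and 5 lowest differences, up to 6 in genes with a miR-30-5p site, 1 or 2 per feature, and those in the listed genes; the upstream-2 sites and HMGA2 and TPM4 were named after their values were seen. Small nucleolar RNAs were taken by position from RefSeq genes, and match positions were checked against the windows (362 of 362). Mature sequences of 5 miR-30 strands came from RefSeq; hsa-miR-30d was not matched.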

Additional observations from a re-analysis of the deposited data

How the results depend on the processing

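Counts of called sites moved with the settings, and the cause was not tested. Over all sites, 28 were called without TMM, 0 without a filter (2317 at an unadjusted p under 0.05), 25 without the variance trend, 203 on coverage, 47 with DESeq2, 117 with the replicate number as a block, and 3 to 110 when 1 library was left out, the lowest without TGF-beta1 replicate 1. Among miR-30-3p sites 1 was called on coverage (TPM4) and 0 to 1 with 1 library left out. The replicate block called 0 of the 12 and changed no call among them.

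Single sites near 0 changed sign. Without TMM the log2 difference was -0.44 at SNORD26, -0.54 at SNHG1, -0.23 at the chromosome 19 site, -0.15 at GAS5 and -0.50 at the first RTN4 site. Without control replicate 2 it was -0.17 at SNORD26, -0.54 at SNHG1, 0.09 at RAPGEF2, -0.30 at GAS5 and -0.55 at the first RTN4 site, and without TGF-beta1 replicate 2 it was 0.20 at RAPGEF2 and -0.04 at the first RTN4 site. The other end of the range with 1 library left out was 0.53 at SNORD26, 0.64 at SNHG1, 1.09 at GAS5 and 0.62 at the first RTN4 site, all without control replicate 1, where RAPGEF2 was at -0.28. With DESeq2 SNHG1 was at -0.017 and the first RTN4 site at -0.025, on coverage RAPGEF2 was at 0.19 and the chromosome 19 site at -0.12, and with a pseudocount of 4 the first RTN4 site was at -0.0020. SNORD82 and the second RTN4 site kept their direction in all settings that tested them, but not their size. The range was 0.25 to 1.55 at SNORD82 and 0.09 to 1.39 at the second RTN4 site. MTSS1L, RBPJ and SKP2 stayed below 0 in all settings that tested them. In the main test they passed the filter through their control values only, so their steady direction is no finding. Their range was -1.80 to -0.48 at MTSS1L, -1.39 to -0.49 at RBPJ and -1.12 to -0.36 at SKP2.

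The TGF-beta1 minus control share of crosslinked reads was 0.0337 percentage points, and -0.158 to 0.225 with 1 library left out. The 3′ UTR share was 46.9% for full matches only. The crosslinked share of covering reads, 13.7% over the libraries, was 22.6% in 3′ UTRs and 15.7% without small nucleolar RNAs. Depth limits the comparison: 350 of the 362 sites were not tested.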
